A study of Mus musculus with 14 samples.

Results

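S100b, Fabp7, Sox10, Ret, Ngfr, Th, Dbh and Erbb3 are genes used to recognise neural crest cells, their glial descendants and sympathetic neurons. They were followed here in whole ovaries of mouse embryos with and without Coup-tfII, the orphan nuclear receptor encoded by Nr2f2. The members were all probe sets whose single gene symbol in the platform annotation is one of these 8 names, which gave 17 of 45037 probe sets other than Affymetrix controls, for 8 of 18193 genes. The comparison asks whether genes of nerve-related tissue differ between the genotypes. In E16.5 knockouts 1 S100b probe set rose and 1 Ret probe set fell, both close to the threshold, and no member passed at E14.5.

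Neural crest cells leave the dorsal neural tube and give rise to Schwann cells and other glia, to sympathetic and enteric neurons and to the chromaffin cells of the adrenal medulla. Sox10 and the receptor Erbb3 mark migrating crest and early glia, and Th and Dbh make the catecholamines of sympathetic neurons and chromaffin cells. Several members are also expressed outside nerves: Ret, the receptor of GDNF ligands, in the mesonephric duct, and Ngfr, the low-affinity neurotrophin receptor, in embryonic mesenchyme.

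The samples were ovaries of 4 groups, namely E14.5 ovaries on 3 arrays for each genotype and E16.5 ovaries on 4 arrays for each genotype, on a mixed background of C57BL/6, Swiss Webster and B6129SF1/J. In the model with WT1-CreERT2 and COUP-TFII flox/flox, a tamoxifen-dependent Cre recombinase under the control of Wt1 deletes the floxed gene. Deletion is therefore limited to cells with Wt1 activity while tamoxifen acts, in the ovary the somatic cells and surface epithelium, and to their descendants. Other cells keep the gene. Dams received tamoxifen at 2 mg per 10 g of body weight at E11.5 and again at E12.5, and the labels give this treatment for control samples too. The sources used here give neither the alleles that the controls carry nor whether ovaries were pooled. The labels call the arrays biological replicates without naming the animals, so p-values measure the spread between these samples. Values are linear MAS5 signals per probe set, and the number of arrays limits the precision. A lower signal in whole ovary can mean fewer cells of a type or less RNA per cell, and these cannot be told apart.

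Median signals per array ranged from 90.0 to 102 at E14.5, against 118 to 136 at E16.5. Measures of the arrays separated the stages. The log2 difference between the 3' and 5' Gapdh probe sets was -0.42 to -0.06 at E14.5, against 0.94 to 1.83 at E16.5, and the mean bioB hybridization control signal was 1213 to 1487 and 3806 to 16405. At E16.5 the Gapdh difference was also lower in all knockouts (0.94 to 1.63) than in all controls (1.67 to 1.83), and knockout replicates 1 and 4 had bioB signals of 10028 and 16405. The highest signal of any Y-linked probe set (Eif2s3y, Kdm5d and Uty) in these ovaries was 48.1, which serves below as a level that absent transcripts can reach. It came from E14.5 knockout replicate 2. The highest at E16.5 was 17.8 in controls and 24.4 in knockouts, so 48.1 is a high bar for that stage. Ovary-defining genes were bright: in E16.5 controls Foxl2, which specifies granulosa cells, had 2524 ± 150 (SD, n = 4) and Ddx4, a germ cell RNA helicase, 1214 ± 96.4 (SD, n = 4). Of the 6 probe sets of the targeted Nr2f2, 5 were lower on every E16.5 knockout array than on any control, and 3 passed as lower (log2 changes of -2.57 ± 0.45, -1.79 ± 0.38 and -1.60 ± 0.21, SE, limma adjusted p = 0.0135, 0.0448 and 0.00295). None passed at E14.5. The only probe set of Wt1, which controls the recombinase, was also lower on every E16.5 knockout array than on any control. It had 4220 ± 200 in controls and 3268 ± 143 in knockouts (SD, n = 4 per group). Its change of -0.37 ± 0.13 did not pass (limma adjusted p = 0.233), and at E14.5 the groups overlapped (-0.23 ± 0.15, limma adjusted p = 0.729). E14.5 control replicate 1 had 19.3 on the Nr2f2 probe set with -2.57, against 350 and 207 in the other controls and 34.6 to 79.1 in knockouts. On the probe set with -1.60 it had 268, against 350 and 273 in the other controls and 161 to 259 in knockouts. The brightest Nr2f2 probe set had 217 on this array, against 493 and 422 in the other controls and 155 to 267 in knockouts. On each Nr2f2 probe set this array was the lowest E14.5 control, and only the value of 268 was above all knockouts.

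Promoters are shown for the 3 members with a RefSeq entry (GRCm38.p6) whose E16.5 arrays did not overlap between genotypes on at least 1 of the brighter probe sets, S100b, Fabp7 and Ngfr. Each is the 250 bases before the annotated transcription start, 5' to 3'. Capitals mark the COUP-TF half-site AGGTCA and the SOX core ACAAT, each searched on both strands.
S100b, chr10:76253586-76253835, plus strand: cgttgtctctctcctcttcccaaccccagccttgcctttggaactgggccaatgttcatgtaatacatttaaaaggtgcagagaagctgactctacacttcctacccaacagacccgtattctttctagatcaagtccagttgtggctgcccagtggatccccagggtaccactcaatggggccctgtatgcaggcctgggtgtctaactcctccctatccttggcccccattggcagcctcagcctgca
Fabp7, chr10:57784673-57784922, plus strand: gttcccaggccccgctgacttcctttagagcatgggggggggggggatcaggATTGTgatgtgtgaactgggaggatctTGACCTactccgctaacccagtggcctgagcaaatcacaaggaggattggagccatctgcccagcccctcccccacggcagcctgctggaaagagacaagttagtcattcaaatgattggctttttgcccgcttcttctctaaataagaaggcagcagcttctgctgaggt
Ngfr, chr11:95587699-95587948, minus strand: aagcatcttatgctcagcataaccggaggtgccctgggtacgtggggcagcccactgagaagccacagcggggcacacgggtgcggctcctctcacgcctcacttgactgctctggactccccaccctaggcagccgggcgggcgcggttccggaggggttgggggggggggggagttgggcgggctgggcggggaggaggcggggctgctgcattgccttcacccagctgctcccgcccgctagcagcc
The Fabp7 window holds 1 half-site, 171 to 166 bases before the start, and 1 SOX core, 198 to 194 bases before it. The S100b and Ngfr windows hold neither, which says only that these letters are not in these windows. Of 32851 promoter windows of this length, 4607 hold the half-site and 9086 (27.7%) the SOX core, so a match by letters alone is common. Of 8 members 5 had a promoter entry. Neither the Th window nor the Dbh window holds the half-site, and the Dbh window holds 1 SOX core, 94 to 90 bases before the start.

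Changes are given as the knockout minus control difference of log2(signal + 16), a scale that understates changes of dim probe sets, with limma p adjusted over all 45037 probe sets and a threshold of 0.05. At E16.5 1 of 17 member probe sets rose and 1 fell. Over all probe sets 0.293% rose, 0.18% fell and 0.473% passed in either direction. The arrays of the genotypes did not overlap for 6 of 17 member probe sets, 2 higher and 4 lower, against 7.81% of all probe sets (3.96% higher and 3.84% lower). An unadjusted p under 0.05 was found for 6 of 17, against 5477 of 45037. Probe sets of 1 gene share their transcript. The 6 that did not overlap stand for 5 genes only (S100b, Sox10, Fabp7, Ret and Ngfr). The 6 with an unadjusted p under 0.05 were probe sets of S100b, Fabp7, Ret and Ngfr only. At E14.5 0 of 17 passed, against 0.0333% of all, with 2 of 17 at an unadjusted p under 0.05 against 3701 of 45037, and 2 of 17 did not overlap, both higher, against 11.2% of all (6.73% higher and 4.5% lower). The members' median change was -0.047 at the earlier stage and 0.021 at the later one, and over all probe sets it was 0.02 and 0.03.

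**Figure D1:**
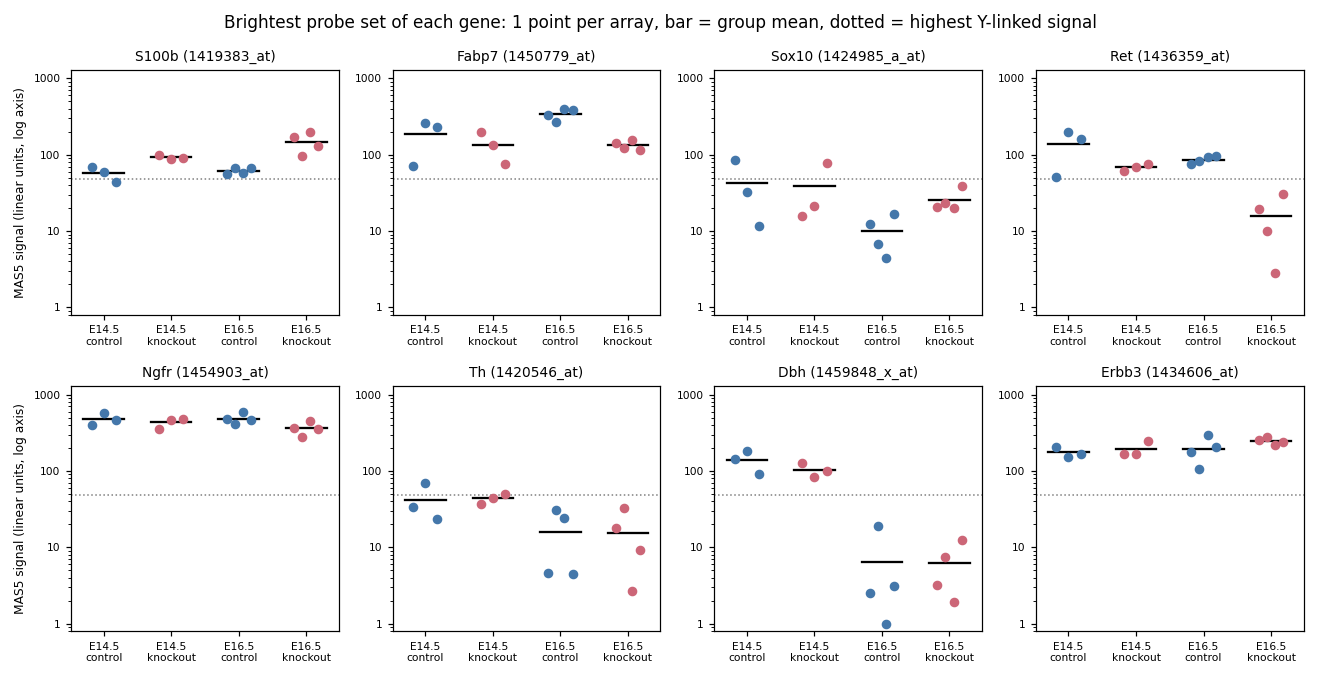
MAS5 signal (linear units on a log axis, the same in all panels) of the brightest probe set of each gene, with 1 point per array, the group mean as a bar and the highest Y-linked signal (48.1) as a dotted line. S100b was higher, and Fabp7 and Ret lower, in all 4 E16.5 knockout arrays than in all 4 controls, while Sox10 and Th stayed at or under the dotted line on 12 of 14 arrays each.

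Among the glial genes, S100b, a calcium-binding protein of Schwann cells and astrocytes that other cell types also make, was the member that rose. On its brighter probe set (1419383_at) the E16.5 controls had signals of 56.1, 66, 57.7 and 67.2 and the knockouts 172, 96, 196 and 129. Every knockout lay above every control, with a wider spread among knockouts. The log2 change was 1.04 ± 0.22 (SE, n = 4 per group; limma adjusted p = 0.0433). At E14.5 the same probe set had 68.2, 59.3 and 43.8 in controls and 99.4, 87.6 and 90.7 in knockouts. The groups again did not overlap, but the change of 0.58 ± 0.26 did not pass (limma adjusted p = 0.563). The changes at the 2 stages differed by 0.46 ± 0.34 (E16.5 minus E14.5; limma adjusted p = 0.791).

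The other S100b probe set (1434342_at) was higher on average in knockouts at both stages and passed at neither. At E16.5 it had 54.7, 76.2, 27.2 and 11.9 in controls and 112, 35.3, 82.7 and 77.6 in knockouts, so the groups overlapped through knockout replicate 2 (0.74 ± 0.33, limma adjusted p = 0.378). At E14.5 controls had 83.8, 69.2 and 64.2 and knockouts 115, 110 and 85.4, without overlap (0.43 ± 0.38, limma adjusted p = 0.838). The S100b call was narrow. It was lost without E16.5 control replicate 1, 2, 3 or 4 (limma adjusted p = 0.127, 0.0985, 0.138 and 0.0903), E16.5 knockout replicate 1, 3 or 4 (0.158, 0.0987 and 0.0831), E14.5 control replicate 2 (0.0547) or E14.5 knockout replicate 1 (0.0517), while the change stayed between 0.90 and 1.21. It was also lost with the E16.5 arrays alone (0.0673) and with the Gapdh difference as a covariate (0.94 ± 0.30, limma adjusted p = 0.454).

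Fabp7, the brain-type fatty acid binding protein of radial glia and Schwann cell precursors, went the other way. Its only probe set (1450779_at) had 327, 270, 399 and 382 in E16.5 controls and 144, 121, 155 and 115 in knockouts. The lowest control was well above the highest knockout. The log2 change of -1.26 ± 0.31 did not pass (limma adjusted p = 0.0771). It passed without E14.5 control replicate 1 (0.0126), which enters through the shared spread, and with the E16.5 arrays alone (0.00888). At E14.5 controls had 71.3, 262 and 230 and knockouts 196, 133 and 76, with a change of -0.35 ± 0.35 (limma adjusted p = 0.866). The low control there was replicate 1, the lowest E14.5 control on each Nr2f2 probe set. Without it the change was -0.88 ± 0.29 (limma adjusted p = 0.404), and without knockout replicate 3 it was -0.031 ± 0.37.

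Sox10, the transcription factor that defines crest and glia, and the glial neuregulin receptor Erbb3 did not pass at either stage. The 3 Sox10 probe sets were dim, with medians over the 14 arrays of 20.4, 14.4 and 8.35. Of 14 arrays each, 12, 13 and 14 had a signal at or under the highest Y-linked one. On the brightest (1424985_a_at) E16.5 controls had 12.4, 6.74, 4.49 and 16.7 and knockouts 20.8, 23.1, 20 and 38.6. Every knockout lay above every control, but all 8 values were under 48.1, and the change of 0.68 ± 0.37 did not pass (limma adjusted p = 0.491). Of these values only 38.6 exceeded the highest Y-linked signal at E16.5 (24.4). The other 2 Sox10 probe sets had 0.13 ± 0.38 and 0.56 ± 0.29, with overlapping groups. The brighter Erbb3 probe set (1434606_at) was above the Y-linked level on every array. It had 175, 106, 295 and 204 in E16.5 controls and 258, 280, 220 and 237 in knockouts, which overlapped (0.40 ± 0.23, limma adjusted p = 0.521), and at E14.5 the change was 0.12 ± 0.27.

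**Figure D2:**
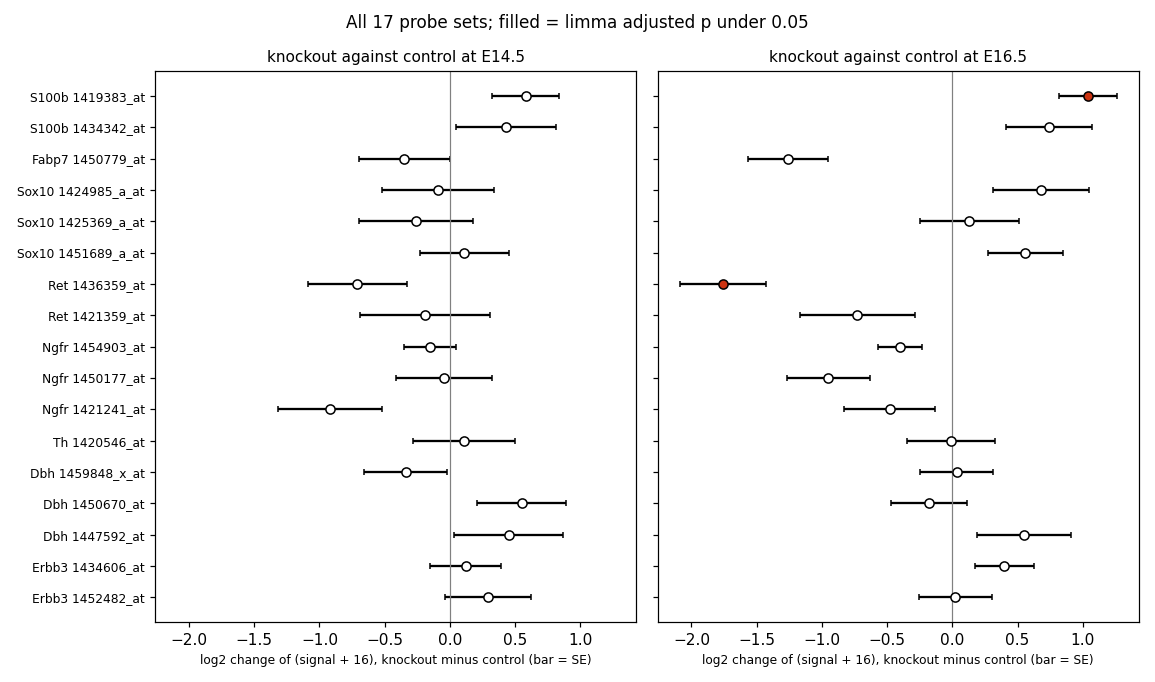
Knockout minus control difference of log2(signal + 16) for all 17 probe sets at E14.5 (left, n = 3 per group) and E16.5 (right, n = 4 per group), with the standard error as a bar and filled points where limma adjusted p was under 0.05. The filled points are S100b (1.04) and Ret (-1.76) at E16.5, and the 3 Ngfr probe sets all lie below 0 at that stage.

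Ret, the receptor tyrosine kinase that binds GDNF ligands through GFRA co-receptors, fell in E16.5 knockouts. Its brighter probe set (1436359_at) had 74.9, 81.8, 93 and 95.7 in controls and 19.4, 10, 2.81 and 31 in knockouts. All knockouts were under the highest Y-linked signal of 48.1 and all controls above it. The knockout value of 31 was above the highest Y-linked signal at E16.5 (24.4). The log2 change was -1.76 ± 0.33 (SE, n = 4 per group; limma adjusted p = 0.0196), and its size depends on the pseudocount (-2.76 with 1 and -0.92 with 64, both past the threshold). The other Ret probe set (1421359_at) had 61.1, 77.8, 68.2 and 100 in controls and 50.3, 28.9, 40.9 and 39.4 in knockouts. These did not overlap either, but the change of -0.73 ± 0.44 did not pass (limma adjusted p = 0.539).

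The Ret call on the brighter probe set was lost without E16.5 control replicate 1, 2, 3 or 4 (limma adjusted p = 0.0562, 0.0563, 0.0777 and 0.0637) or E16.5 knockout replicate 1 or 3 (0.0583 and 0.053), with changes of -1.98 to -1.54 over all single arrays left out. With the Gapdh difference as a covariate it was -2.44 ± 0.37 and passed (limma adjusted p = 0.0332). At E14.5 controls had 51, 201 and 163 and knockouts 60.6, 68.6 and 76.5 (-0.71 ± 0.38, limma adjusted p = 0.669). Control replicate 1 was the lowest of the 6 arrays, and without it the change was -1.23 ± 0.34 (limma adjusted p = 0.249), while without control replicate 2 it was -0.38 ± 0.40 (0.87). The other probe set ranged from 11.8 to 127 over the 6 E14.5 arrays, and the genotypes overlapped widely (-0.19 ± 0.50, limma adjusted p = 0.968). The changes at the stages differed by -1.06 ± 0.50 on the brighter probe set (limma adjusted p = 0.651), and by -0.54 ± 0.43 without E14.5 control replicate 1.

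The partners of Ret were described from a list of 14 GDNF ligands, co-receptors and signalling genes, all measured on 1 probe set per gene. None passed at E14.5 or E16.5, where 0.676% of all genes passed at E16.5 and 0.044% at E14.5, and the list medians were 0.06 and -0.033. Gdnf itself had 22.2 ± 3.99 (SD, n = 4) in E16.5 controls and 5.94 ± 3.47 in knockouts (-0.81 ± 0.23, limma adjusted p = 0.128). Both means were under 48.1, but the control mean was above the highest Y-linked signal of E16.5 controls (17.8). The co-receptor Gfra4 had a change of -0.75 ± 0.33 (limma adjusted p = 0.359) and Gfra1, the main GDNF co-receptor, 0.49 ± 0.28 (0.527). Since Ret is also expressed in the mesonephric duct, duct markers were read beside it. Of 11 measured duct genes 0 passed at E16.5, 4 had positive and 7 negative changes (median -0.06), and their summed signal was 9300 to 10399 in controls and 8046 to 9585 in knockouts. The smallest p values belonged to the transcription factor Pax8 (0.74 ± 0.22, limma adjusted p = 0.161) and, in the other direction, Emx2 (-0.32 ± 0.15, limma adjusted p = 0.385). The part of duct tissue in the Ret change was not tested.

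Ngfr, also called p75, binds neurotrophins in crest cells, Schwann cells and mesenchyme. On the brightest probe set (1454903_at) E16.5 controls had 477, 410, 591 and 461 and knockouts 367, 280, 458 and 357. The groups overlapped, with a change of -0.40 ± 0.17 (limma adjusted p = 0.339). The next (1450177_at) had 903, 489, 792 and 759 in controls and 325, 299, 395 and 453 in knockouts. Here every knockout lay below every control, with a change of -0.95 ± 0.32 that did not pass (limma adjusted p = 0.216) except with a pseudocount of 64 (0.0481). The dimmest (1421241_at) had 97.8, 108, 123 and 55.9 against 52.7, 38.8, 72.6 and 96.4, which overlapped (-0.48 ± 0.35, limma adjusted p = 0.637).

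At E14.5 the brightest Ngfr probe set had 399, 579 and 472 in controls and 357, 460 and 481 in knockouts (-0.15 ± 0.20). The second was under the highest Y-linked signal on all 6 E14.5 arrays, so it carries no comparison there. The dimmest had 10.8, 58.4 and 55.3 against 21.9, 2.45 and 14.1 (-0.92 ± 0.40, limma adjusted p = 0.561), and with single E14.5 arrays left out it ranged from -1.40 (without control replicate 1) to -0.63 (without knockout replicate 2). Of 8 measured genes of a list of 11 neurotrophins and receptors, 0 passed at either stage, with medians of 0.13 at the earlier and 0.18 at the later stage. Over all genes 0.044% passed at E14.5 and 0.676% at E16.5. The neurotrophin Bdnf had changes of 1.16 ± 0.34 and 0.83 ± 0.30 (limma adjusted p = 0.32 and 0.248), and the sorting receptor Sort1 had 0.52 ± 0.17 at E16.5 (0.202).

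**Figure D3:**
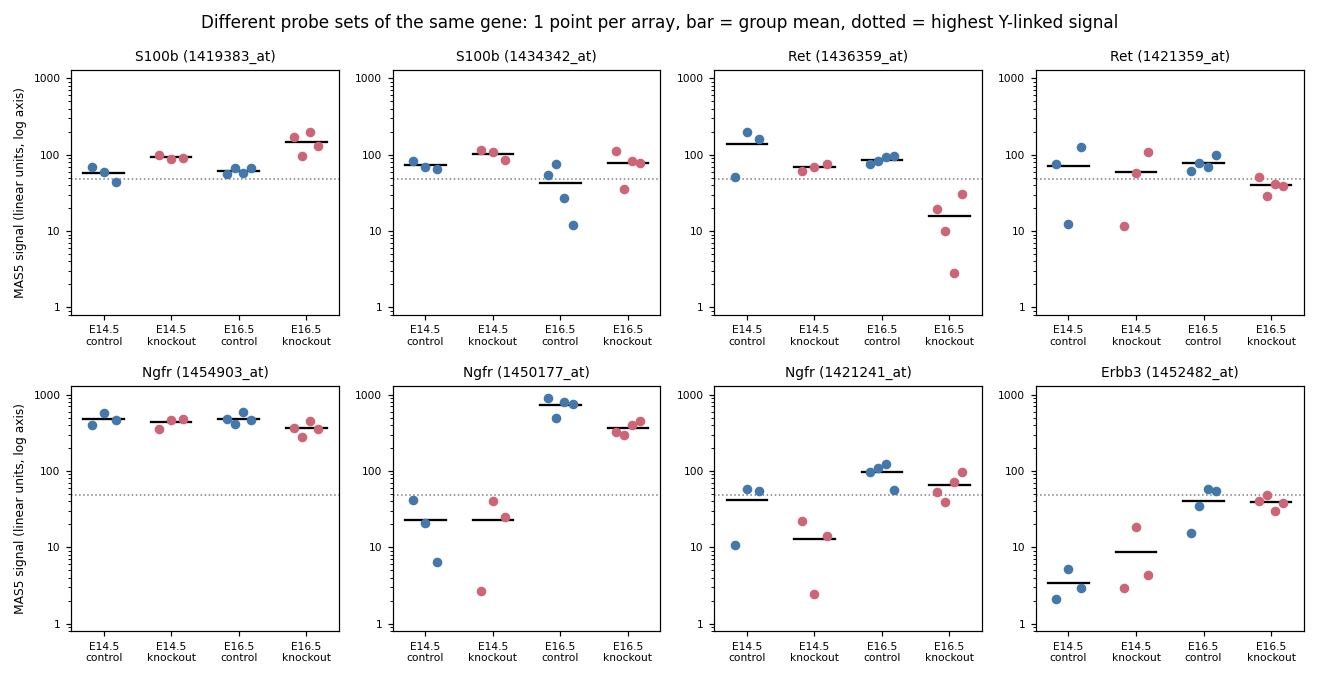
MAS5 signal (linear units on a log axis) of the probe sets of S100b, Ret and Ngfr and of the dimmer Erbb3 probe set, with 1 point per array, the group mean as a bar and the highest Y-linked signal (48.1) as a dotted line. The second Ngfr probe set (1450177_at) lies under the line on all E14.5 arrays and between 299 and 903 at E16.5, while the brightest one stays between 280 and 591 throughout.

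Th, the rate-limiting enzyme of catecholamine synthesis, and Dbh, which converts dopamine to noradrenaline, showed no difference between genotypes that passed. The Th probe set (1420546_at) had 4.65, 30.5, 24 and 4.49 in E16.5 controls and 17.7, 32.3, 2.69 and 9.09 in knockouts. All 8 values were under 48.1, and the change was -0.011 ± 0.34 (limma adjusted p = 0.995). The values 30.5 and 24 in controls and 32.3 in knockouts exceeded the highest Y-linked signal of their group (17.8 and 24.4). At E14.5 Th had 33.9, 68.9 and 23.6 in controls and 37.2, 44.7 and 49.6 in knockouts (0.11 ± 0.39). The brightest Dbh probe set (1459848_x_at) had 144, 180 and 91.9 in E14.5 controls and 129, 83 and 99.6 in knockouts (-0.34 ± 0.32, limma adjusted p = 0.849). At E16.5 it had 2.54, 19.1, 0.988 and 3.07 against 3.19, 7.5, 1.91 and 12.6 (0.032 ± 0.28). The other 2 Dbh probe sets were at or under the highest Y-linked signal on 11 and 13 of 14 arrays. At these levels Th and Dbh leave little room to see a difference in sympathetic or chromaffin cells at E16.5. Other genes of these cells are given below.

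The lists of the surrounding biology gave no nerve gene past the threshold in either genotype comparison. Of 16 measured Schwann cell and glial genes, 15 neural crest genes, 20 sympathetic and chromaffin genes, 17 neuron and axon genes and 11 neuregulin and ERBB genes, 0 passed at E14.5 or E16.5. Over all genes 0.044% passed at E14.5 and 0.676% at E16.5, so no call in lists of this size is near that share. The median change of all genes was 0.038 at E14.5, against 0.06 at E16.5. In the same order the list medians were 0.19, 0.024, -0.09, 0.17 and 0.17 at E14.5 and 0.12, 0.048, 0.022, 0.33 and 0.23 at E16.5. Positive changes, again in this order, numbered 12, 8, 6, 9 and 6 at E14.5 and 10, 8, 10, 12 and 8 at E16.5.

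Within these lists the smallest p belonged to Prph, the intermediate filament peripherin of peripheral neurons, which had 44.4 ± 14.2 (SD, n = 4) in E16.5 controls and 117 ± 24.1 in knockouts. Its arrays did not overlap, and its change of 1.16 ± 0.30 did not pass (limma adjusted p = 0.0955). At E14.5 Prph had 36.2 ± 10.7 (SD, n = 3) and 130 ± 84.1, again without overlap (1.36 ± 0.34, limma adjusted p = 0.215). Nefm, a neurofilament subunit, had 26.1 ± 11.7 and 87 ± 58.2 at E16.5 (1.18 ± 0.33, limma adjusted p = 0.131). Tubb3, the neuronal tubulin, was dim and also had the higher mean in knockouts (5.61 and 18.7). Of the sympathetic genes Hand2, which specifies noradrenergic neurons and is also made in mesenchyme, had -1.16 ± 0.38 (limma adjusted p = 0.202) and the adrenaline-making Pnmt 0.47 ± 0.22 (0.396). At E14.5 the glial genes with the smallest p were Cnp, a myelin enzyme (0.55 ± 0.18), and Gfap, the glial intermediate filament (-1.17 ± 0.43), of opposite sign and at limma adjusted p of 0.394 and 0.466. The glial genes with the smallest p at E16.5 were Egr2 (0.52 ± 0.29) and Lgi4 (0.62 ± 0.37), at limma adjusted p of 0.514 and 0.532. Of the crest genes Snai2 had -0.34 ± 0.11 and Msx1 -0.57 ± 0.24 at E16.5 (limma adjusted p = 0.199 and 0.32), and of the ERBB genes Egfr had 0.25 ± 0.13 and the ligand Nrg1 0.37 ± 0.26.

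Of the 2 gene families to which members belong, the other fatty acid and retinoid binding proteins had 1 of 11 genes higher at E16.5 and none lower, against 0.467% and 0.209% of all genes. That gene was Fabp3, the heart-type protein, with 312 ± 59.3 (SD, n = 4) in controls and 954 ± 282 in knockouts (1.53 ± 0.28, limma adjusted p = 0.0184), opposite in sign to Fabp7. Fabp4, of adipocytes and macrophages, had 1.56 ± 0.36 and did not pass (limma adjusted p = 0.0617). Of 12 measured S100 genes other than S100b 0 passed at either stage. Their median change was 0.38 at E14.5, with 9 of 12 positive, and 0.08 at E16.5, with 7 of 12 positive. S100a13 had 0.54 ± 0.21 at E16.5 (limma adjusted p = 0.307).

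**Figure D4:**
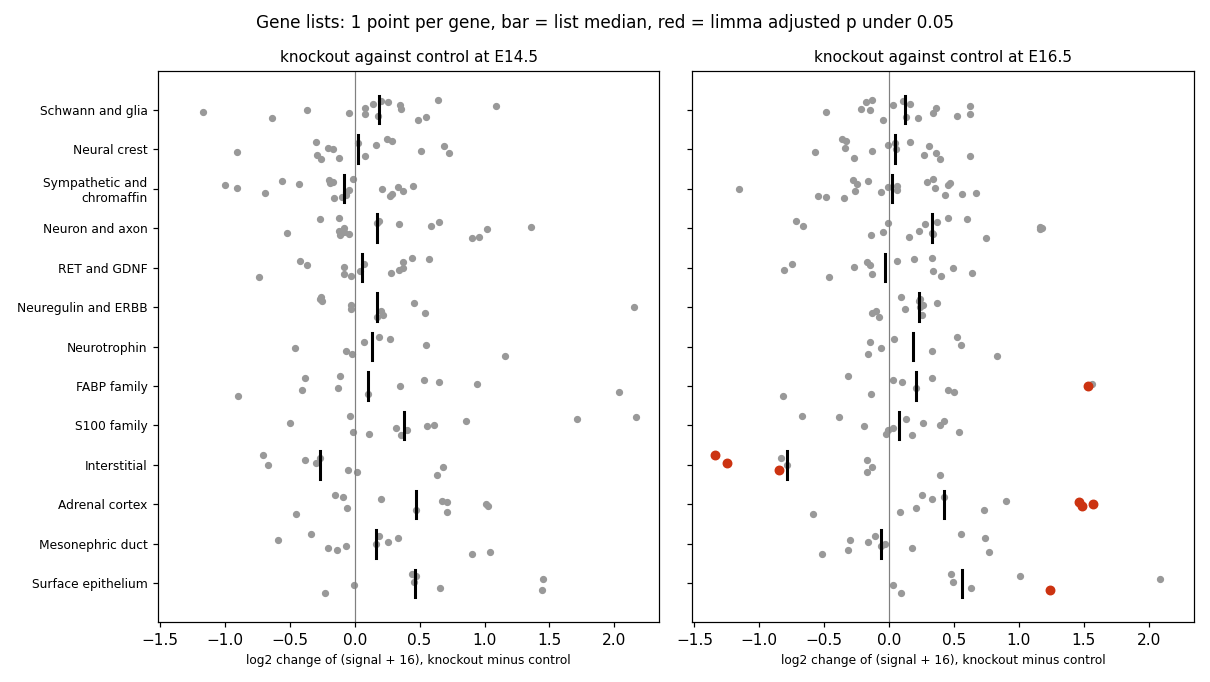
Knockout minus control difference of log2(signal + 16) at E14.5 (left) and E16.5 (right) for 13 gene lists, with 1 point per gene, the list median as a bar and larger red points where limma adjusted p was under 0.05. The nerve lists hold no red point, while 3 interstitial genes at E16.5 lie below 0 and 3 adrenal cortex genes, Krt19 and Fabp3 above it.

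Some markers of other tissues passed at E16.5, where 0.467% of all genes rose, 0.209% fell and the median change was 0.06. At these shares the lack of calls in the nerve lists is not read as a contrast. Of 9 measured interstitial genes 3 fell and 0 rose (Wnt5a -1.34 ± 0.20, Pdgfra -1.25 ± 0.19 and Gli2 -0.85 ± 0.18, limma adjusted p = 0.00486, 0.00518 and 0.0362), and their summed signal was 20146 to 21562 in controls and 11621 to 19130 in knockouts. This list includes Nr2f2 itself. Of 11 adrenal cortex genes 3 rose (Mc2r, Hao2 and Hsd3b1, 1.46 to 1.57), with summed signals of 2940 to 4116 and 5723 to 9163. Of these 11 changes 10 were positive, with a median of 0.42. The adrenal steroid enzyme Cyp11b1 was dim, at 5.85 and 7.04 on average in controls and knockouts. Th and Dbh, of the adjoining adrenal medulla, were too dim at E16.5 to be compared. Of 8 surface epithelium genes Krt19 rose (1.24 ± 0.24, limma adjusted p = 0.0247), with summed signals of 9207 to 10694 and 12679 to 17124. Of 7 endothelial genes 1 rose, Plvap (1.18 ± 0.21), and 1 fell, the receptor Tek (-0.68 ± 0.15, limma adjusted p = 0.0159 and 0.0477). Of 8 macrophage genes 0 passed and all 8 changes were positive, with summed signals of 2510 to 2951 and 2928 to 6201. The part of these tissues, and of the lower Gapdh difference in knockouts, in the S100b, Fabp7, Ret and Ngfr values was not tested. The Gapdh difference separates all E16.5 knockouts from all E16.5 controls, so the covariate fits cannot tell it apart from genotype.

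Between the stages, 8 of 17 member probe sets passed in controls, 4 higher and 4 lower at E16.5, but so did 52.5% of all probe sets (28.4% higher and 24.1% lower). The second Ngfr probe set had 42.1, 20.7 and 6.33 at E14.5, all under the highest Y-linked signal, and 903, 489, 792 and 759 at E16.5, so the size of its change is not given, while the brightest Ngfr probe set had nearly the same mean at both (483 and 485; 0.0081 ± 0.18). Dbh on its brightest probe set had a mean of 139 at E14.5 and lay under the highest Y-linked signal in all 4 E16.5 controls. Both stage means of the dimmer Erbb3 probe set were under that level, and the brighter had a change of 0.08 ± 0.25. Over all genes, of 4674 genes with several probe sets past the threshold between stages, 2335 (50%) had probe sets of opposite sign, against 0 of 17 genes in the E16.5 genotype comparison. Fabp7 (0.98 ± 0.33, limma adjusted p = 0.0185) lost its call without E14.5 control replicate 1 (0.193), with quantile normalization (0.116), with median centring (0.1) and with the Gapdh covariate (0.246). Since the Gapdh difference and hybridization controls separate all arrays of the stages, stage and array processing cannot be told apart, and no member's stage change is read as development.

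Patterns across arrays were compared for the 4 members whose brightest probe set had a mean above that of 40% of probe sets, against 12405 genes past the same level. The measure was Pearson's r of deviations from the group means over the 14 arrays, given as a description. The genes most like S100b were Clec14a, Scp2 and 9530077C05Rik (r = 0.878, 0.87 and 0.861). Those most like Fabp7 were 2310030G06Rik, Zfp945 and Lbhd2 (0.91, 0.904 and 0.897). For Ngfr they were Srf, Ptpn11 and Dennd4b (0.863, 0.86 and 0.839), and for Erbb3 Mettl27, B230308N11Rik and Rpn2 (0.934, 0.882 and 0.849). With group differences left in, the genes most like each were others: Thbd (0.928) for S100b, Gpr155 (0.911) for Fabp7, the interstitial gene Tcf21 (0.806) for Ngfr and Wnk2 (0.83) for Erbb3. No gene of the nerve lists was among the 3 most like any member by either measure. With 3 of 12405 genes named each time, that absence was likely in any case and is not read as a result.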

How the data were processed

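Total RNA of 14 ovary samples was hybridized to Affymetrix arrays after 3' IVT Express labelling, per the labels' protocols. The deposited values are MAS5 signals, a linear intensity per probe set. Expression Console is the program that the submitters' processing notes name, without versions. Each array's mean, trimmed by 2% at each end, was 500, so global differences in RNA amount between arrays are removed.

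Intensities were taken as log2(signal + 16). A model of the 4 groups was fitted to all 45037 probe sets other than the 64 controls, with no filter so that dim members keep a value, using limma 3.58.1 (lmFit, eBayes with trend) in R 4.3.3, two-sided, with Benjamini-Hochberg adjustment over all probe sets. Lists use the probe set with the highest mean per gene. They are described by counts and medians with no list test. Steps were tested on simulated data. Figures were drawn with matplotlib 3.10.9.

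The members and lists were chosen with earlier results of these data known. The naming rule takes all member probe sets, up to 4 called genes per list (otherwise up to 2 with the smallest p) and the 3 genes most like each member. Gfra1, Tubb3, Cyp11b1, Ddx4 and Fabp4 were named with their values in view. Replicate numbers were not taken as pairs, since same-numbered arrays did not deviate together throughout.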

Additional observations from a re-analysis of the deposited data

Results flagged for a closer look

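On 3 member probe sets 1 array stood far from the other 3 of its group, by a gap test that chance passes in about 1 of 20 groups. Sox10 (1424985_a_at) had 38.6 in E16.5 knockout replicate 4, one of the arrays with high hybridization controls, against 20 to 23.1 in the other knockouts. Dbh had 19.1 (1459848_x_at) and 32.1 (1447592_at) in E16.5 control replicate 2, against at most 3.07 and 5.08 in the other controls. All 3 values lie under the highest Y-linked signal of 48.1, which came from an E14.5 array. They lie above the highest of their own E16.5 group (24.4 in knockouts and 17.8 in controls).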

How the results depend on the processing

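No member passed at E14.5 or for the difference between stages under any alternative run. At E16.5 the count of 2 became 1 with a pseudocount of 1, with the 40th percentile filter or 1 probe set per gene above it (where Ret is too dim to be tested), without trend, with the replicate block (S100b lost, limma adjusted p = 0.0805; Ret 0.0254) and with the Gapdh covariate. With the E16.5 arrays alone the count stayed at 2 but held Ret and Fabp7, not S100b. It became 0 without both E16.5 knockout replicates 1 and 4 (S100b 0.381, Ret 0.062), and ranged from 0 to 3 with single arrays left out. The block, whose same-numbered pairs correlated at -0.04 to 0.064 (E14.5) or -0.018 to 0.378 (E16.5), changed no other member call. The stage count of 8 in controls became 2 with the filter, 1 with 1 probe set per gene and 0 with the Gapdh covariate, and ranged from 4 to 8 with single arrays left out. Over all probe sets the E16.5 calls (213) ranged from 7 with the Gapdh covariate to 521 without knockout replicate 2, and the E14.5 calls (15) from 0 to 272. Signs turned only for changes that passed nowhere. With single arrays left out, ranges at E14.5 were -0.57 to 0.40, -0.59 to 0.13 and -0.14 to 0.29 for the 3 Sox10 probe sets, -0.86 to 0.41 for Ret (1421359_at), -0.40 to 0.41 for Ngfr (1450177_at), -0.13 to 0.42 for Th, -0.10 to 0.73 for Dbh (1447592_at) and -0.05 to 0.22 for Erbb3 (1434606_at). At E16.5 they were -0.20 to 0.45 for Sox10 (1425369_a_at), -0.25 to 0.21 for Th, -0.10 to 0.27 for Dbh (1459848_x_at) and -0.24 to 0.18 for Erbb3 (1452482_at), and -0.00078 to 0.57 for the stage difference of S100b (1434342_at). Without both knockout replicates 1 and 4, Th had 0.012, Dbh -0.06 and that S100b difference -0.0033. With the Gapdh covariate Dbh had -0.017, Erbb3 -0.05 and S100b -0.0096. Median centring gave Dbh -0.0048 and Erbb3 -0.016, and Erbb3 had -0.0079 with a pseudocount of 64 and -0.02 with quantile normalization. The cause of these changes was not tested. Signals under about 48.1 limit Sox10, Th, Dbh, the dim probe sets of Ngfr and Erbb3, and both Ret probe sets, where the E16.5 knockouts on the called one were all under it.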
